A study of Mus musculus with 30 samples.

Results

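The nicotinic acetylcholine receptor of muscle and the proteins that gather it at the nerve-muscle junction were followed in RNA from mouse Achilles tendon. The genes were the receptor subunits Chrna1, Chrnb1, Chrnd, Chrne and Chrng, the subunit Chrna9, and the junction genes Musk, Dok7, Lrp4 and Rapsn. They were taken by gene symbol. All 10 were found among 55426 genes of the table.

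Muscle was loaded by light in this study, and RNA was measured in the tendon and in the heel bone (calcaneus) to which it attaches. Every sample, controls included, had the genotype label Acta1,Ai32. The Ai32 allele encodes channelrhodopsin, which lets cations into a cell under light; Acta1 is the gene of skeletal muscle actin. Animal age, and how the allele was switched on, were not given in the labels. Tendon gave 5 groups of 3 samples: naive samples of day 0, unstimulated controls of day 5 and of day 12, and stimulated samples of day 5 and of day 12. The same 5 groups of bone served as reference. The titles of stimulated samples also carry the word control; the treatment label was followed.

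The adult receptor of muscle is a pentamer of alpha1 (Chrna1), beta1 (Chrnb1), delta (Chrnd) and epsilon (Chrne) subunits. In fetal muscle, and in adult muscle that has lost its nerve, the gamma subunit (Chrng) stands in the place of epsilon. Agrin from the motor nerve binds Lrp4, Lrp4 activates the kinase Musk with the help of the adaptor Dok7, and Rapsn anchors the receptors in clusters under the nerve ending.

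Total gene counts were 24.5 to 44.6 M (1 M is 1000000) per tendon library and 19.3 to 35.0 M per bone library. The tendon libraries held much muscle RNA: the 15 muscle fibre markers summed to 111000 to 256000 CPM (counts scaled to a library of 1000000), whereas the 7 tendon fibroblast markers summed to 481 to 3250 CPM. In bone the muscle sum was at most 42400 CPM, and 195.5 CPM in naive library 3. A tissue sample that holds fewer cells of a type cannot be told apart here from one whose cells hold less RNA. Tendon library 3 of the 5-day unstimulated group stood apart, with 1875 CPM of summed Schwann cell markers against 41.2 and 63.5 CPM in the other 2. Library 3 of the 12-day stimulated group had 1895 CPM of summed muscle progenitor and regeneration markers, against at most 769 CPM in the other tendon libraries. In bone, libraries 1 and 2 of the unstimulated group of day 5 hardly differed; counted as 1 sample, they left 14 bone libraries. The labels do not say whether replicates came from different animals, nor whether unstimulated controls came from the stimulated animals. The p-values therefore reflect only how far these samples spread, and that spread could be technical.

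On GRCm38, Chrnd (chr1:87190607-87200070) and Chrng (chr1:87204657-87212694) are neighbours on the plus strand of chromosome 1. Chrna1 lies at chr2:73563215-73580338, Lrp4 at chr2:91457511-91513779 and Rapsn at chr2:91035620-91045729. Chrnb1 lies at chr11:69784036-69795943 and Chrne at chr11:70614883-70619216. Musk is at chr4:58285960-58374303, Dok7 at chr5:35056766-35087839 and Chrna9 at chr5:65934921-65977326. Chrne overlaps 4930544D05Rik on the opposite strand without shared exon bases, and that gene had at most 47 counts in a tendon library. Rapsn shares 4 exon bases with Gm13778 on the opposite strand, which had at most 13 counts. Whether counting used strand is not given in the labels, so reads of such pairs may be mixed.

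Among the motifs described for genes of this kind, E-boxes are bound by myogenic factors such as MyoD and myogenin, and N-boxes by Ets factors of the junction. RefSeq promoters (GRCm38.p6) were available for Chrng, Chrna1, Chrnb1, Chrne, Chrna9, Musk and Dok7. The 250 bases before the RefSeq start are shown for the gamma, alpha1 and epsilon subunits, since the receptor results below turn on them. RefSeq starts differ from the GENCODE spans given above. The windows of Chrng, of Chrna9 and of 1 Dok7 start lie wholly inside those spans. Exon lengths used below follow GENCODE. Capitals mark the E-box (CANNTG) and the N-box (CCGGAA), searched on both strands, 5′ to 3′ on the gene's own strand.
Chrng, chr1:87205561-87205810, plus strand: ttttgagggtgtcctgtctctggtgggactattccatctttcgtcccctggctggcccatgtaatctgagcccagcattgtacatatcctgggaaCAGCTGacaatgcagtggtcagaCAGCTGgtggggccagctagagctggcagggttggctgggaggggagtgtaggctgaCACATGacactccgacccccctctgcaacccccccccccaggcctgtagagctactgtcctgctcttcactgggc
Chrna1, chr2:73580339-73580588, minus strand: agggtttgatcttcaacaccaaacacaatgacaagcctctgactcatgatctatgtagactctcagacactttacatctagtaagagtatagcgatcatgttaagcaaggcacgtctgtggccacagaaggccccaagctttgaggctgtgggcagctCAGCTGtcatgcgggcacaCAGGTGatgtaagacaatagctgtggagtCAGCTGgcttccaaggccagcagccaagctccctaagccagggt
Chrne, chr11:70619195-70619444, minus strand: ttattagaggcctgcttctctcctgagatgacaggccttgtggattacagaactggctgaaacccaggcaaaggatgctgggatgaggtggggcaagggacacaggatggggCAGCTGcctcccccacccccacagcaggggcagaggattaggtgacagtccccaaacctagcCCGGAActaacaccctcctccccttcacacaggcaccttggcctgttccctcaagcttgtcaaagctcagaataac
Chrng and Chrna1 each held 3 E-boxes and no N-box in this window. Chrne held 1 E-box and 1 N-box. Musk and Chrnb1 held 3 E-boxes each and Chrna9 held 2, while Dok7, which has 2 starts in the table, held 1 before one start and 0 before the other. Among 32851 promoters of the same length, 66.2% held an E-box, with a mean of 1.16, and 12.0% held an N-box. These matches describe letters only.

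In naive tendon the adult subunits and the clustering genes were all present, and Chrng and Chrna9 were near the bottom of the range. Per kilobase of exon, mean CPM was 18.0 ± 3.68 (SD, n = 3) for Chrnb1, 12.7 ± 0.504 for Rapsn, 6.88 ± 1.25 for Chrna1 and 6.28 ± 0.255 for Dok7. It was 4.62 ± 0.774 for Chrnd, 3.82 ± 2.32 for Chrne, 3.66 ± 0.646 for Musk and 2.81 ± 0.0872 for Lrp4. Chrng had 0.227 ± 0.0443 and Chrna9 0.0339 ± 0.00853 CPM per kilobase. The libraries of Chrna1 and Dok7 overlapped on this scale, as did those of Chrnd, Chrne and Musk, and those of Lrp4 and Chrne. Chrnb1, Rapsn, Chrng and Chrna9 each stood clear of their neighbours in this order.

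All 10 genes passed the filter on low counts in tendon and entered the test, edgeR's quasi-likelihood test over all 15 tendon libraries, with Benjamini-Hochberg adjustment over 17108 genes and a threshold of 0.05. Levels below are CPM, listed from replicate 1 to 3. Each log2 fold change is given with its standard error after ±.

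**Figure D1:**
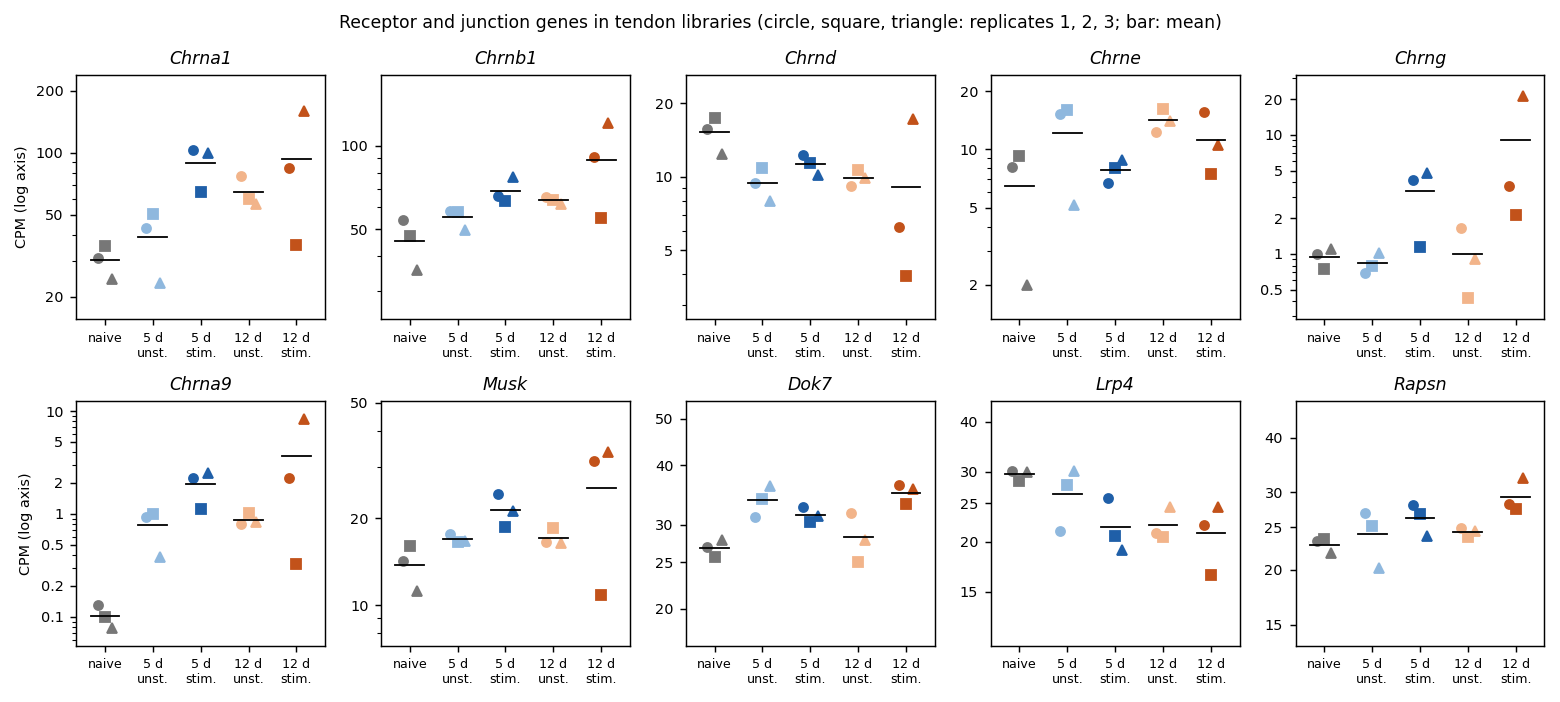
CPM (log axis) of the 10 genes in each tendon library, with 1 panel per gene, a symbol per replicate and a bar at the group mean. Chrng and Chrna9 spread most, with library 3 of the 12-day stimulated group at 21.43 and 8.37 CPM, while Dok7 and Rapsn stayed between 20.2 and 36.4 CPM throughout.

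The alpha1 subunit, which carries most of the acetylcholine binding site, was measured at higher levels in stimulated libraries of day 5. Chrna1 was at 31.0, 35.2 and 24.4 CPM in naive tendon. At day 5 it was at 43.0, 50.3 and 23.4 CPM in unstimulated and at 103, 64.4 and 100 CPM in stimulated tendon, so that these groups did not overlap. At day 12 it was at 76.9, 59.9 and 56.7 CPM in unstimulated and at 84.2, 35.6 and 160 CPM in stimulated tendon. The 12-day stimulated libraries thus lay both below and above all their unstimulated controls. The log2 fold change of stimulated against unstimulated was 1.20 ± 0.43 at day 5 (edgeR adjusted p = 0.485) and 0.53 ± 0.43 at day 12 (adjusted p = 0.738). Without library 3 of the 12-day stimulated group the latter was -0.11, and without library 3 of the 5-day unstimulated group the former was 0.93 (adjusted p = 0.529).

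The gamma subunit was low in most libraries and high in a few stimulated ones. Chrng was at 0.996, 0.742 and 1.10 CPM in naive tendon. It was at 0.695, 0.794 and 1.02 CPM in unstimulated and at 4.155, 1.15 and 4.77 CPM in stimulated tendon of day 5. At day 12 it was at 1.66, 0.424 and 0.905 CPM in unstimulated and at 3.73, 2.14 and 21.4 CPM in stimulated tendon. Stimulated and unstimulated libraries did not overlap on either day, although library 2 at day 5 was only just above its controls. Stimulated against unstimulated, it had a log2 fold change of 1.99 ± 0.82 at day 5 (edgeR adjusted p = 0.549) and 3.18 ± 0.82 at day 12 (adjusted p = 0.115). DESeq2 called the 12-day difference, at 3.19 with an adjusted p of 0.00112. Without library 3 of the 5-day unstimulated group the 5-day value was 2.17 (edgeR adjusted p = 0.511). With library 3 of the 12-day stimulated group left out, edgeR gave 1.53 (adjusted p = 0.561). That library also had the highest sum of progenitor and regeneration markers, and the part of this in the result was not tested.

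The epsilon subunit showed no such order. Chrne was at 8.08, 9.30 and 1.99 CPM in naive tendon. At day 5 it was at 15.2, 15.9 and 5.17 CPM in unstimulated and at 6.70, 7.99 and 8.86 CPM in stimulated tendon, and at day 12 at 12.3, 16.2 and 14.0 against 15.6, 7.46 and 10.5 CPM. Groups overlapped on both days, with library 3 low in the naive and in the 5-day unstimulated group. Both of these libraries also had the lowest muscle marker sums in tendon. Its fold change on the log2 scale was -0.62 ± 0.49 at day 5 (edgeR adjusted p = 0.846) and -0.35 ± 0.49 at day 12 (adjusted p = 0.891). The 5-day value was -0.37 to -0.98 with 1 library left out, the latter without unstimulated library 3 (edgeR adjusted p = 0.501). It was -0.11 with the muscle score, the mean of muscle fibre markers, as a covariate and -1.06 by limma-voom (adjusted p = 0.0474).

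Set against each other within a library, gamma and epsilon give a measure that does not depend on library size. Over the 15 tendon libraries Chrne had Pearson's r = 0.838 with the muscle marker sum, and Chrng had 0.094. The part of muscle content in the share was not tested. Chrng made up 11.0%, 7.39% and 35.6% of the summed Chrng and Chrne counts in naive tendon. It made up 4.36%, 4.76% and 16.4% in unstimulated and 38.3%, 12.6% and 35.0% in stimulated tendon of day 5. At day 12 it made up 11.9%, 2.54% and 6.06% in unstimulated and 19.3%, 22.3% and 67.1% in stimulated tendon. The last value rested on 1042 counts, with a 95% Wilson interval of 64.2% to 69.9% that covers counting error only. Stimulated libraries were above all unstimulated ones at day 12 but not at day 5.

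The mean share was 28.6 ± 14.0% in stimulated and 8.52 ± 6.86% in unstimulated tendon at day 5 (SD, n = 3 each), a difference of 20.1 percentage points (two-sided exact permutation p = 0.2). At day 12 the means were 36.2 ± 26.8% and 6.82 ± 4.70%, a difference of 29.4 points (exact permutation p = 0.1). With 3 libraries against 3, the smallest p this test allows is 0.1. Over the 6 comparisons of the share the Benjamini-Hochberg value was 0.45 for both, and the 4 comparisons with naive tendon had exact p-values of 0.3 to 0.5. Naive tendon itself reached 18.0 ± 15.4% through library 3, in which Chrne had only 76 counts. On counts per kilobase of exon the 12-day means were 21.5% and 2.93%. In bone the share was 0 to 7.07% in the 14 libraries; the value of 0 came from 5 counts in all, which allows a share of up to 60.0%.

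**Figure D2:**
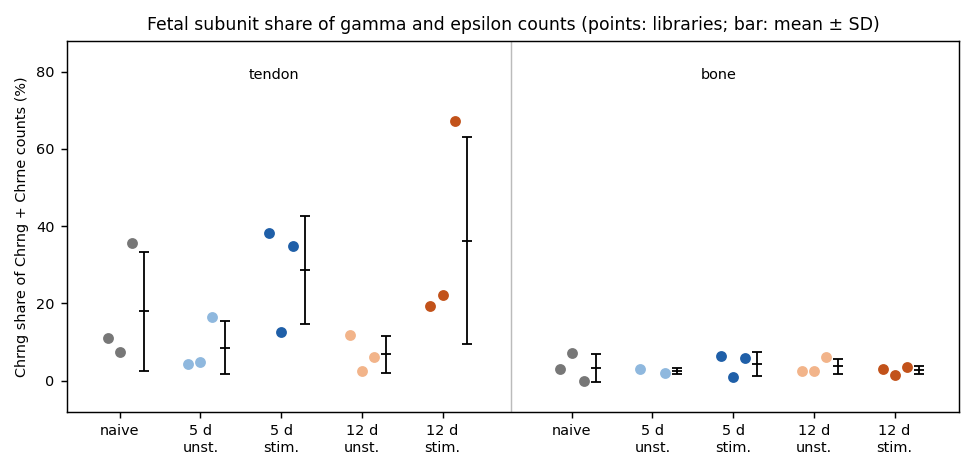
Chrng as a percentage of summed Chrng and Chrne counts in each library of tendon (left) and bone (right), with the mean ± SD beside the points of each group. Stimulated tendon reached 38.3% at day 5 and 67.1% at day 12, and no bone library exceeded 7.07%.

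The beta1 and delta subunits, both shared by the fetal and the adult receptor, differed from each other in their pattern. Chrnb1 was at 54.0, 47.1 and 35.6 CPM in naive tendon, at 58.4, 57.7 and 49.9 CPM in unstimulated and 65.9, 63.1 and 77.2 CPM in stimulated tendon of day 5. At day 12 it was at 65.4, 63.7 and 61.9 CPM in unstimulated and 91.0, 54.9 and 120 CPM in stimulated tendon. The groups did not overlap at day 5 and overlapped at day 12. Its log2 fold change was 0.31 ± 0.22 at day 5 (edgeR adjusted p = 0.803) and 0.48 ± 0.22 at day 12 (adjusted p = 0.442).

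Chrnd was highest in naive tendon, at 15.6, 17.5 and 12.5 CPM. It was at 9.44, 10.9 and 7.96 CPM in unstimulated and 12.3, 11.4 and 10.2 CPM in stimulated tendon of day 5, and at 9.20, 10.7 and 9.85 against 6.24, 3.91 and 17.2 CPM at day 12. Stimulated libraries of day 12 again lay on both sides of their controls, with library 3 the highest of the group as for the other subunits except Chrne. Its fold change on the log2 scale was 0.26 ± 0.38 at day 5 (edgeR adjusted p = 0.940) and -0.10 ± 0.38 at day 12 (adjusted p = 0.966).

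Chrna9 encodes an alpha9 subunit that is known mainly from hair cells of the inner ear and is no part of the muscle receptor. It was nearly absent from naive tendon, at 0.130, 0.0989 and 0.0787 CPM, or 13 counts in the 3 libraries. It was at 0.940, 1.001 and 0.378 CPM in unstimulated and 2.21, 1.12 and 2.50 CPM in stimulated tendon of day 5. At day 12 it was at 0.794, 1.02 and 0.835 CPM in unstimulated and 2.22, 0.326 and 8.37 CPM in stimulated tendon. Every library of day 5 and day 12 was above every naive one, and stimulated and unstimulated libraries separated at day 5 only.

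Summed over libraries, Chrna9 was 19.0-fold higher in 5-day stimulated than in naive tendon (95% counting interval 10.8 to 36.2) and 38.8-fold higher in 12-day stimulated tendon (22.4 to 73.6). Library 3 held most of the latter counts; without it the ratio was 11.0 (5.95 to 22). In unstimulated tendon the ratio to naive was 7.1 at day 5 (3.88 to 14.0) and 8.39 at day 12 (4.6 to 16.5). These intervals cover counting error only. Stimulated against unstimulated, the log2 fold change was 1.35 ± 0.78 at day 5 (edgeR adjusted p = 0.714) and 2.06 ± 0.77 at day 12 (adjusted p = 0.318). Without library 3 of the 12-day stimulated group the latter was 0.49 (adjusted p = 0.993).

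Among the genes that gather the receptor, the kinase Musk was at 14.2, 16.0 and 11.2 CPM in naive tendon. It was at 17.6, 16.5 and 16.6 CPM in unstimulated and 24.3, 18.7 and 21.2 CPM in stimulated tendon of day 5, and at 16.6, 18.4 and 16.4 against 31.6, 10.9 and 33.9 CPM at day 12. The groups did not overlap at day 5, and at day 12 library 2 lay below all controls and the other 2 above them. The log2 fold change was 0.34 ± 0.30 at day 5 (edgeR adjusted p = 0.875) and 0.57 ± 0.30 at day 12 (adjusted p = 0.530).

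Dok7, the adaptor that activates Musk, was narrowly spread in all groups. It was at 27.0, 25.7 and 27.8 CPM in naive tendon. At day 5 it was at 31.1, 33.9 and 36.1 CPM in unstimulated and 32.6, 30.5 and 31.2 CPM in stimulated tendon, and at day 12 at 31.7, 25.1 and 27.9 against 36.4, 33.1 and 35.6 CPM. Stimulated libraries were above all controls at day 12 only. For Dok7 the log2 fold change was -0.10 ± 0.09 at day 5 (edgeR adjusted p = 0.860) and 0.31 ± 0.09 at day 12 (adjusted p = 0.142).

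Rapsn, the scaffold under the receptor, was at 23.2, 23.5 and 21.8 CPM in naive tendon. It was at 26.9, 25.2 and 20.2 CPM in unstimulated and 28.0, 26.7 and 23.8 CPM in stimulated tendon of day 5, and at 24.9, 23.7 and 24.6 against 28.2, 27.6 and 32.3 CPM at day 12. Here too the groups separated at day 12 only. For Rapsn the log2 fold change was 0.12 ± 0.10 at day 5 (edgeR adjusted p = 0.858) and 0.27 ± 0.10 at day 12 (adjusted p = 0.336).

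Lrp4, the receptor for agrin, was at 30.1, 28.5 and 30.04 CPM in naive tendon and had a lower mean in each later group. It was at 21.3, 27.8 and 30.1 CPM in unstimulated and 25.8, 20.7 and 19.1 CPM in stimulated tendon of day 5, and at 21.03, 20.6 and 24.4 against 22.1, 16.5 and 24.5 CPM at day 12. Stimulated and unstimulated libraries overlapped on both days. For Lrp4 the log2 fold change was -0.28 ± 0.16 at day 5 (edgeR adjusted p = 0.708) and -0.07 ± 0.16 at day 12 (adjusted p = 0.943).

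Taken as a list, none of the 10 genes passed the threshold between stimulated and unstimulated tendon on either day. At day 5, where edgeR called 0.0585% of all genes tested, 2 of the 10 had an unadjusted p below 0.05 (Chrna1 and Chrng, both higher), against 8.28% of all genes. DESeq2 called 0 of them and 0.787% of all genes. Limma-voom with quality weights called 3, Chrna1 and Chrng higher and Chrne lower, and 15% of all genes. At day 12, where edgeR called 0.345% of all genes, 5 of the 10 had an unadjusted p below 0.05, all higher (Chrng, Chrnb1, Chrna9, Dok7 and Rapsn), against 11.2% of all genes. There DESeq2 called Chrng and 2.16% of all genes, and limma-voom called 0 and 1.38% of all genes. Without library 2 of the 12-day stimulated group edgeR called 672 genes in all and 4 of the 10, namely Chrng (3.63), Chrna9 (2.59), Chrnb1 (0.72) and Musk (0.93).

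The median log2 fold change of the 10 genes was 0.29 at day 5 and 0.39 at day 12, beside medians of all genes tested of -0.00 and 0.01. Stimulated libraries lay above all unstimulated ones for 5 genes at day 5 (Chrna1, Chrnb1, Chrng, Chrna9 and Musk), a separation that 7.1% of all genes tested showed. At day 12 this held for 3 genes (Chrng, Dok7 and Rapsn), against 7.65% of all genes. Chrng did so on both days. The 15 muscle fibre markers, summed, were at 140000 to 166000 CPM in stimulated and 125000 to 226000 CPM in unstimulated tendon of day 5, and edgeR called 0 of them on either day (0 and 2 at an unadjusted p below 0.05, 0 and 1 by DESeq2, 10 and 0 by limma-voom). All 8 Schwann cell markers were below 0 at day 5, with a median of -3.53; edgeR called 0, 7 had an unadjusted p below 0.05, DESeq2 called 1 and limma-voom 0. Apart from unstimulated library 3, their sums were 41.2 and 63.5 CPM in unstimulated and 20.3 to 27.7 CPM in stimulated tendon. The part of these lists in the members' values was not tested beyond the muscle score as a covariate and the fits without single libraries.

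Whether the effect of stimulation differed between days was tested as an interaction. None of the 10 genes was called by edgeR, DESeq2 or limma-voom, which called 0.0%, 0.079% and 0.0351% of all genes. The difference of the log2 fold changes, day 12 minus day 5, was 0.41 ± 0.12 for Dok7, the one gene with an unadjusted p below 0.05. It was 1.19 ± 1.14 for Chrng, 0.71 ± 1.10 for Chrna9, -0.67 ± 0.60 for Chrna1 and -0.365 ± 0.54 for Chrnd. The other 5 lay between 0.145 and 0.269. The adjusted p was 1.0 for each of the 10.

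Against naive tendon, edgeR called 7 of the 10 genes after 12 days of stimulation, of which 6 rose and 1 fell. These comparisons share their naive libraries, and the groups also differ in day. Chrna9 rose most, by 5.097 ± 0.96 on the log2 scale (edgeR adjusted p = 0.00514), followed by Chrng at 3.27 ± 0.80 (adjusted p = 0.0141) and Chrna1 at 1.63 ± 0.44 (adjusted p = 0.0207). Chrnb1 rose by 0.96 ± 0.22 (adjusted p = 0.0107), Dok7 by 0.38 ± 0.09 (adjusted p = 0.00925) and Rapsn by 0.36 ± 0.10 (adjusted p = 0.0231). Lrp4 fell by 0.49 ± 0.16 (adjusted p = 0.0380). Musk at 0.88 ± 0.30 (adjusted p = 0.0502), Chrne at 0.78 ± 0.50 and Chrnd at -0.72 ± 0.38 were not called. DESeq2 called the same 7 and Musk (adjusted p = 0.0151), beside 28.7% of all genes. Limma-voom called the same 7, Musk (adjusted p = 0.0331) and Chrnd (-1.11, adjusted p = 0.0127), beside 30.4% of all genes.

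The 7 of 10 called by edgeR stand beside 24.4% of all genes it called in this comparison, 11.8% as higher and 12.5% as lower. The median of the 10 was 0.83, against -0.01 for all genes tested. In the same comparison 11 of the 15 muscle fibre markers rose and 4 of the 7 tendon fibroblast markers fell; the part of this shift of tissue content in the 7 calls was not tested beyond a fit with the muscle score as a covariate, in which Dok7 alone was called (0.49, adjusted p = 0.0458). Without library 3 of the 12-day stimulated group Chrna9 was at 3.53 (edgeR adjusted p = 0.0122), Chrng at 1.62 (adjusted p = 0.0621) and Chrna1 at 0.99 (adjusted p = 0.0881). Without naive library 3 the count was 2, Chrna9 and Dok7, and without library 1 of the 12-day stimulated group it was 4. Those 2 fits called 1649 and 1713 genes in all, against 4169 with every library.

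**Figure D3:**
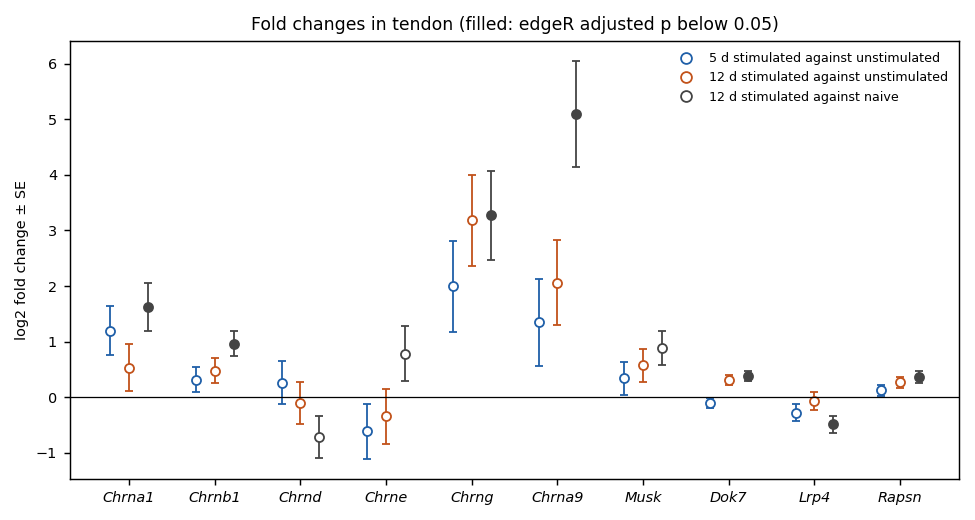
Log2 fold change ± standard error of each gene in tendon for stimulated against unstimulated at day 5 and day 12, and for 12-day stimulated against naive; filled points passed the edgeR threshold. Only the comparison with naive has filled points, for 7 of the 10 genes, of which Lrp4 alone is below 0.

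After 5 days of stimulation 1 of the 10 genes was called against naive, Chrna9, which rose by 4.18 ± 0.96 (edgeR adjusted p = 0.0443), where 2.29% of all genes were called. Chrna1 had 1.56 ± 0.44 (adjusted p = 0.0842) and Chrng 1.83 ± 0.79 (adjusted p = 0.226). The call of Chrna9 was lost when any 1 of the 6 libraries compared was left out, with adjusted p-values of 0.0758 to 0.177.

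In the unstimulated groups edgeR called none of the 10 against naive. At day 5, where 0.0351% of all genes were called, 2 of the 10 had an unadjusted p below 0.05, Chrna9 at 2.83 ± 1.025 and Dok7 at 0.33 ± 0.09, against 10.9% of all genes. DESeq2 called 1 there, beside 0.642% of all genes, and limma-voom 4, beside 22.9%. At day 12, where 18.8% of all genes were called, 5 had an unadjusted p below 0.05, against 35.8% of all genes. Chrna9 was at 3.04 ± 1.02 (adjusted p = 0.0541) and Chrna1 at 1.09 ± 0.43 (adjusted p = 0.0915), and DESeq2 called these 2, beside 24.2% of all genes, while limma-voom called 5, beside 36.0%.

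Other genes of the junction and of the muscle response to lost nerve activity were taken from lists that were chosen with earlier results of these data known. Of 12 genes known to respond to denervation or activity, 11 were tested. One rose with stimulation at day 5, Hdac4, a repressor of transcription that is induced in denervated muscle. Hdac4 was at 38.1, 39.8 and 41.0 CPM in unstimulated and at 60.0, 60.5 and 63.0 CPM in stimulated tendon, ordered by level, with a log2 fold change of 0.63 ± 0.09 (edgeR adjusted p = 0.0231). These groups did not overlap, and 7.1% of all genes tested had stimulated libraries higher in this way. With 1 library left out Hdac4 had 0.60 to 0.64, and edgeR lost the call in 5 of 6 such fits, all except that without stimulated library 3, with adjusted p-values of 0.0733 to 0.166. The call was also lost with only the libraries compared (adjusted p = 0.0774). Of the 11 genes 6 had an unadjusted p below 0.05 at day 5, DESeq2 called 3 and limma-voom 8.

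Runx1, a transcription factor induced by denervation, was at 11.1 to 13.2 CPM in unstimulated and at 24.9 to 30.7 CPM in stimulated tendon of day 5, with 1.19 ± 0.21 (edgeR adjusted p = 0.0783). Gadd45a, a stress protein, had 1.13 ± 0.30 (adjusted p = 0.303), and the ubiquitin ligase Fbxo32 had 0.61 ± 0.19 (adjusted p = 0.365). The median of the 11 was 0.61. At day 12 edgeR called 0 of the 11, with 2 at an unadjusted p below 0.05 (Runx1 at 0.87 ± 0.21 and Hdac4 at 0.34 ± 0.09); DESeq2 called 2 and limma-voom 0. All 11 fold changes were above 0 at day 12, with a median of 0.37. Against naive, 12-day stimulated tendon had 3 that rose (Hdac4, Fbxo32 and Gadd45a) and 1 that fell (Hdac9).

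Of 24 other junction genes, which encode agrin, laminins, acetylcholinesterase, neuregulin receptors and their partners, 23 were tested and edgeR called 0 with stimulation on either day. On each day 4 had an unadjusted p below 0.05; limma-voom called 4 at day 5 and 0 at day 12, and DESeq2 called 0 on both. At day 12 Ache, the enzyme that breaks acetylcholine down, was at 141, 163 and 175 CPM in unstimulated and at 59.3, 69.7 and 109 CPM in stimulated tendon, ordered by level. Its log2 fold change was -1.01 ± 0.32 (edgeR adjusted p = 0.22).

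Colq, the collagen tail that anchors this enzyme, was at 22.7 to 27.2 CPM in unstimulated and at 8.68 to 19.4 CPM in stimulated tendon of day 12, with -0.80 ± 0.27 (edgeR adjusted p = 0.242). Ache and Colq libraries did not overlap between these groups. The share of all genes whose stimulated libraries were lower in this way was not counted. Of the 23 genes tested 10 were above 0 and 13 below at day 12, with a median of -0.06. Agrn, the nerve and muscle signal read by Lrp4, had -0.32 ± 0.11 on each day (adjusted p = 0.453 at day 5 and 0.26 at day 12). Erbb2, a neuregulin receptor, had 0.91 ± 0.285 at day 12 (adjusted p = 0.21).

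Against naive, where edgeR called 24.4% of all genes, 12-day stimulated tendon had 5 of the 23 junction genes called. Of these 3 rose, among them the laminin chain Lama5 by 0.71 ± 0.13 (edgeR adjusted p = 0.00375). The other direction held the collagen gene Col13a1, which fell by 0.86 ± 0.24 (adjusted p = 0.0237), and Gabpa, an Ets factor of the N-box, which fell by 0.34 ± 0.09 (adjusted p = 0.0145). In 12-day unstimulated tendon 4 of the 23 rose and 2 fell, beside 18.8% of all genes called. Of 10 further nicotinic subunits, known mainly from neurons, 4 passed the filter (Chrna2, Chrna4, Chrna10 and Chrnb2), and edgeR, DESeq2 and limma-voom each called 0 with stimulation (1 and 0 at an unadjusted p below 0.05 at day 5 and day 12). Chrna10, the partner of alpha9 in hair cells, was at 1.66, 2.88 and 5.30 CPM in 5-day stimulated and at 1.34, 1.87 and 2.29 CPM in unstimulated tendon, ordered by level, so that these groups overlapped (0.845 ± 0.40, edgeR adjusted p = 0.614).

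Muscle progenitor and regeneration markers were also compared. Of the 8, edgeR called 0 with stimulation, with 1 at an unadjusted p below 0.05 at day 5 and 4 at day 12. DESeq2 called 0 and 3, and limma-voom 2 and 1. At day 5, 6 of the 8 log2 fold changes were above 0, with a median of 0.465. At day 12 all 8 were above 0, with a median of 1.37. Myh8, the perinatal myosin, was at 28.1, 28.6 and 42.3 CPM in unstimulated and at 79.5, 117 and 1104 CPM in stimulated tendon of day 12, ordered by level (3.715 ± 0.86, edgeR adjusted p = 0.0938). None of the 8 markers was at 0 in a whole tendon group. Their summed level was 122 to 231 CPM in unstimulated and 225 to 1895 CPM in stimulated tendon of day 12, and their part in the levels of Chrng was not tested. Library 3 of the 5-day unstimulated group had 769 CPM of these markers with Chrng at 1.02 CPM. Against naive, 4 of the 8 rose after 12 days of stimulation (Mymx, Myh8, Mymk and Myod1).

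Over the 15 tendon libraries, the pattern of log2 CPM most like that of Chrng among 12537 genes was that of Myl4, an embryonic and atrial myosin light chain, with Pearson's r = 0.955. Next came Aif1l (0.944), Myh8 (0.938), Atp9b (0.924) and Anxa4 (0.918). Nearest to Chrna1 were Myf6, a myogenic factor (0.953), Gadd45a (0.946), Igfn1 (0.939), Rack1 (0.915) and Plekhh1 (0.911). Nearest to Chrne were Kansl1l (0.939), Mettl18 (0.909), Sgcb (0.908), Acsl4 (0.905) and Kbtbd12 (0.901), and no gene stood in more than 1 of these lists. Among the 10 genes themselves Chrna1 and Chrna9 were most alike (r = 0.92), Chrna1 and Chrng had 0.72, and Chrng and Chrne had -0.05. These values describe 15 libraries that share groups and muscle content.

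Bone held these genes at levels that, for Chrna1, Chrnb1, Chrnd, Chrne, Musk, Dok7 and Rapsn, followed its muscle content across libraries. In naive bone libraries 1 to 3, Chrna1 was at 53.0, 32.1 and 0.401 CPM, and Chrnd was at 10.7, 4.82 and 0 CPM. Library 3 was also the library with 195.5 CPM of muscle markers. Its 0 counts of Chrnd and of Chrng allow up to 0.144 CPM each. Lrp4, which osteoblasts and osteocytes make as a partner of sclerostin, was at 159, 161 and 155 CPM in the same 3 libraries, also where the muscle sum was lowest.

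On a scale common to both tissues, 6 of the 10 genes differed between naive tendon and naive bone, where 68.4% of all genes were called. The 5 that were higher in tendon, beside 33.3% of all genes, were Musk at 3.27 ± 0.55, Rapsn at 2.84 ± 0.39, Dok7 at 2.43 ± 0.54, Chrnb1 at 2.28 ± 0.56 and Chrnd at 2.20 ± 0.735. The largest adjusted p among them was 0.0115 (edgeR, Chrnd). Lrp4 was lower in tendon, as were 35.0% of all genes, at -1.73 ± 0.13 (adjusted p = 9.35e-11). Chrna1 at 0.75 ± 0.77 (adjusted p = 0.399) and Chrne at 0.40 ± 0.735 (adjusted p = 0.646) were not called. Neither were Chrng at 2.03 ± 0.97 (adjusted p = 0.0685) and Chrna9 (adjusted p = 0.06). DESeq2 called the same 6 and also Chrng and Chrna9 (adjusted p = 0.0404 and 0.00662), beside 54.8% of all genes. Limma-voom called the same 6 as edgeR, beside 74.0%.

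Chrna9 had 0 counts in naive bone, which allows up to 0.0428 CPM over the 3 libraries. Pooled naive tendon had 0.114 CPM, or 2.65 times that limit. The counting error of the tendon value is not part of this ratio. With the muscle score as a covariate the tendon-to-bone values of Chrnb1, Chrnd, Dok7 and Musk turned below 0, to -1.16, -2.78, -1.19 and -0.29. The muscle sums of the tissues do not overlap, so that fit compares them outside the range they share. Rapsn was at 0.43 (edgeR adjusted p = 0.367) and was no longer called. Lrp4 stayed at -1.76.

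Across the 14 bone libraries log2 CPM of Chrna1 and of the muscle marker sum had r = 0.992 (permutation p = 1e-05, the smallest that 100000 permutations can give) and Spearman's rho = 0.881 (permutation p = 6e-05). Without the 2 libraries farthest from the median, r was 0.939. For Chrnb1, Chrnd, Chrne, Musk, Dok7 and Rapsn r was 0.909 to 0.98 and rho 0.846 to 0.952, with permutation p-values of at most 2e-05 and 0.0002. Chrng in bone had r = 0.772 (permutation p = 0.0006) and rho = 0.582 (permutation p = 0.03, Benjamini-Hochberg 0.057). Chrna9 was not taken into this relation in bone. Lrp4 had r = -0.5 (permutation p = 0.06) and rho = -0.508 (permutation p = 0.07). In tendon Chrne had the closest relation, with r = 0.838 (permutation p = 2e-05), rho = 0.807 (permutation p = 0.0004) and r = 0.753 without the 2 farthest libraries. Chrng had r = 0.094 (permutation p = 0.7) and rho = -0.107 (permutation p = 0.7) in tendon. The Benjamini-Hochberg value of r over 19 relations was 3.2e-05 for Chrna1 in bone and 4.8e-05 for Chrne in tendon. The libraries of 1 tissue differ in group, and groups of 3 are too small for a value within each.

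Set against the muscle fibre counts, Chrna1 and Chrne transcripts were more abundant in bone than in tendon. Chrna1 had 1.98 to 3.45 counts per 1000 muscle marker counts in the bone libraries and 0.169 to 0.734 in the tendon libraries, so that the tissues did not overlap. For Chrne the ratio was 0.477 to 1.28 in bone and 0.018 to 0.0782 in tendon. Chrnb1 was at least 0.92 in bone and at most 0.524 in tendon. The same limits were 0.406 and 0.288 for Dok7, 0.317 and 0.2 for Rapsn, and 2.48 and 0.272 for Lrp4. Musk and Chrnd had higher group means in bone, with libraries that overlapped. For Chrng the tissues overlapped, with group means of 0.0164 to 0.0311 in bone. Naive tendon had a lower mean, 0.00717, as had unstimulated tendon of day 5 and day 12, at 0.00503 and 0.00433. Stimulated tendon had means of 0.0225 at day 5 and 0.0394 at day 12, the latter with a highest library of 0.0934. In tendon Chrna1 per 1000 muscle counts was 0.186 to 0.248 in 5-day unstimulated and 0.388 to 0.734 in 5-day stimulated libraries, which did not overlap either.

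**Figure D4:**
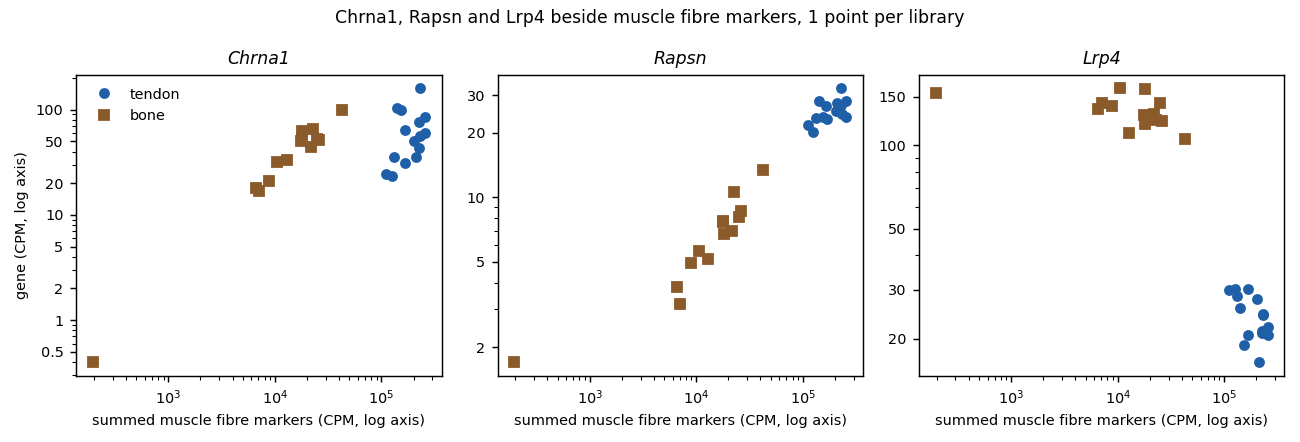
CPM of Chrna1, Rapsn and Lrp4 against the summed CPM of 15 muscle fibre markers, both on log axes, with 1 point per library (tendon circles, bone squares). In bone Chrna1 rises from 0.401 CPM with the muscle sum (r = 0.992), while Lrp4 stays above 105 CPM in every bone library.

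With stimulation, bone gave no call among the 9 genes that could be tested there; Chrna9, at most 0.118 CPM in bone, failed the filter. At day 5 edgeR called 0.0% of all genes in bone, 0 of the 9 had an unadjusted p below 0.05, and DESeq2 and limma-voom called 0, beside 0.236% and 0.0212% of all genes. At day 12 edgeR called 0.0371% of all genes in bone, 1 of the 9 had an unadjusted p below 0.05 (Lrp4 at -0.19 ± 0.08), and DESeq2 and limma-voom called 0, beside 2.81% and 0.0371% of all genes. Standard errors of the receptor subunits were 0.726 to 1.087 in bone, against 0.22 to 0.82 for the same comparisons in tendon.

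The difference of the stimulation effect between tendon and bone was tested for all 10 genes. At day 5 edgeR called 0 of the 10 and 0.0% of all genes, with 1 gene, Lrp4, at an unadjusted p below 0.05; Chrna1 had 2.13 ± 1.14 (adjusted p = 0.8). At day 12 edgeR called 0 of the 10 and 0.222% of all genes, with 0 at an unadjusted p below 0.05, and Chrng had 2.68 ± 1.36 (adjusted p = 0.492). DESeq2 and limma-voom called 0 on both days, beside 0.234% and 2.37% of all genes at day 5 and 1.23% and 0.539% at day 12.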

How the data were processed

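Reads of 30 samples of mouse Achilles tendon and calcaneus were processed by the authors. Per the submitters' processing notes, the tools were cutadapt 2.3, FastQC 0.11.8, STAR 2.7.8a, RSEM 1.3.3 and MultiQC 1.7 with GRCm38; roles, annotation release and strandedness are not given in the sources used. The deposited values are RSEM estimated counts per gene, already whole, so rounding changed none. Such estimates share reads of near-identical genes. Of the gene identifiers 99.7% matched GENCODE M21, which gave coordinates and exon lengths.

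The main test was the quasi-likelihood test of edgeR 4.0.16 (R 4.3.3), robust, after TMM scaling and filterByExpr (minimum count 10, minimum total 15), fitted to every library of a tissue, or of both tissues where these were compared, and Benjamini-Hochberg adjustment (threshold 0.05). The fits were tested on simulated data. CPM used TMM-scaled totals. Log2 CPM used a prior count of 2, and relations with muscle markers added 0.1 CPM. The 2 nearly identical bone libraries (mean chi-square per gene 6.28, against 18.8 to 208 in 29 other pairs) were summed. The depth of 19.3 to 44.6 M counts (1 M is 1000000) leaves the error of low genes such as Chrng and Chrna9 partly to counting.

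Alternatives were DESeq2 1.42.0, its size factors in edgeR, no filter, limma 3.58.1 (voom with quality weights), a block for the replicate number, a fit of only the libraries compared, the mean log2 CPM of muscle fibre markers as a covariate (the muscle score), and leaving out each library. All 10 genes are named. Of other lists up to 4 genes with the smallest p per comparison could be named. The 5 genes most like Chrng, Chrna1 and Chrne at a mean of at least 1 CPM are also named. Predicted genes, other members, Y-linked genes and Xist were left out there. The members and the 13 other lists were chosen with earlier results of these data known.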

Additional observations from a re-analysis of the deposited data

How the results depend on the processing

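Counts of called genes among the 10 depended on the test. In tendon, limma-voom called 3 at 5 days between stimulated and unstimulated, and DESeq2 called 1 at 12 days. Against naive, unstimulated tendon had 1 (DESeq2) and 4 (limma-voom) at 5 days, and 2 (DESeq2), 5 (limma-voom) and 5 (only the libraries compared, 30.4% of all genes) at 12 days. For 5-day stimulated against naive the count was 2 by DESeq2 (6.21% of all genes), 7 by limma-voom (20.8%), 2 with only the libraries compared (3.49%), and 0 without the filter or with the muscle score as a covariate. For 12-day stimulated against naive, DESeq2 called the 7 genes of edgeR and Musk (28.7% of all genes). Limma-voom called those 7, Musk and Chrnd (30.4%). The count there was 1 with the muscle score (1.31% of all genes) and 4 with only the libraries compared (16.4%), the cause of which was not tested. With 1 library left out the count ran from 0 to 4 for 12-day stimulated against unstimulated, beside 2 to 672 genes in all. It was 0 throughout for 5-day stimulated against naive, beside 7 to 336 genes in all. For 12-day stimulated against naive it ran from 2 to 7, beside 1649 to 4723 genes in all. The difference of the Chrng share kept its direction without any 1 library, at 15.3 to 28.1 points for stimulated against unstimulated at 5 days and 13.9 to 37.9 at 12 days. Against naive it was -14.8 to -0.666 and -16.5 to -2.36 in unstimulated tendon, and 5.34 to 19.4 and 2.78 to 27.0 in stimulated tendon, at 5 and 12 days.

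Signs turned in 15 alternatives of single genes. Between stimulated and unstimulated tendon at 12 days, Chrnd was 0.08 and 0.25 without stimulated library 1 or 2 (-0.98 to 0.25 over single libraries left out), Chrna1 was -0.11 without stimulated library 3 (-0.11 to 0.91), and Lrp4 was 0.07 and 0.01 without stimulated library 2 or unstimulated library 3 (-0.2 to 0.07). In the difference between days, leaving out 12-day stimulated library 3 gave Chrng -0.45, Chrna9 -0.85, Chrnb1 -0.11 and Musk -0.03, with highest values of 1.76, 1.24, 0.41 and 0.6 without another library. Chrne was -0.13 with the muscle score and -0.05 without 12-day stimulated library 1 (highest 0.64 over single libraries left out, and 0.81 by limma-voom). With the muscle score, naive tendon against naive bone gave Chrnd -2.78, Chrnb1 -1.16, Dok7 -1.19 and Musk -0.29. Of the other alternatives 579 kept direction and side of the threshold, 36 lost a call and 8 gained one.

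Counts over all genes moved more widely, and limma-voom gave the highest in tendon except between stimulated and unstimulated at 12 days and for the difference between days. Between stimulated and unstimulated tendon, edgeR called 10 genes at 5 days (0 to 2558 over the alternatives) and 59 at 12 days (0 to 672), and 0 for the difference between days (0 to 12). Against naive it called 6 (1 to 3914) and 3209 (6 to 6155) in unstimulated, and 392 (7 to 3559) and 4169 (224 to 5209) in stimulated tendon. Bone had 0 (0 to 45) and 7 (0 to 427), the tissues differed in 13569 (7299 to 14686), and in the stimulation effect in 0 (0 to 470) and 44 (3 to 356).

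Whether replicate numbers pair the samples was not settled. Of 18 pairs of same-numbered samples, 4 had a correlation of deviations over 0.1, and the values ran from -0.282 to 0.296. In 3 pairs each sample correlated best with the other. Between stimulated and unstimulated tendon, replicates 1 to 3 had -0.089, 0.143 and 0.177 at 5 days and -0.018, 0.055 and 0.296 at 12 days. The other pairs set naive samples against later ones. With the replicate block, 0 of the 10 genes were called between stimulated and unstimulated tendon on either day, 1 in 5-day and 7 in 12-day stimulated against naive, and 7 in naive tendon against bone. Over all genes the block gave 6 and 49 calls for stimulation in tendon and 743 for 5-day stimulated against naive. It gave 4568 for 12-day stimulated against naive, of 17108 genes tested, and 13489 for naive tendon against bone. For bone and for both tissues the block was fitted with the nearly identical libraries kept as 2, a choice made after seeing the data, as were the Chrna9 ratio without library 3 and the alternatives of Hdac4. Leaving out a library leaves 2 in its group, and low counts of Chrng and Chrna9 limit what this depth can show.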

Other observations

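Markers of other cell types that the samples could hold were at the following summed levels over the 15 tendon libraries. Osteoblast markers were at 10.15 to 68.6 CPM, cartilage markers at 70.7 to 952 CPM, and red cell and neutrophil markers at 9.31 to 69.03 CPM. Macrophage markers were at 28.8 to 99.6 CPM, endothelial markers at 229.5 to 466 CPM and adipocyte markers at 279 to 843 CPM. None of these 6 lists had a gene that edgeR called between stimulated and unstimulated tendon. At 5 days 4 of 6 osteoblast and 2 of 4 cartilage markers had an unadjusted p below 0.05, with medians of -1.25 and -1.22 on the log2 scale, and at 12 days 1 of each did; the other 4 lists had 0. DESeq2 called 2 osteoblast markers at 5 days and 1 at 12 days. At 5 days limma-voom called 3 osteoblast and 5 adipocyte markers. Both tools called 0 in the remaining cases. Of the 7 tendon fibroblast markers edgeR called 1 on both days, as lower with stimulation: Tppp3, a tubulin-binding protein of the tendon sheath. It was at 72.8 to 109 CPM in unstimulated and 28.7 to 35.7 CPM in stimulated tendon at 5 days (-1.45 ± 0.16, edgeR adjusted p = 0.00767), and at 72.4 to 110 against 39.95 to 43.4 CPM at 12 days (-1.135 ± 0.16, adjusted p = 0.0138). DESeq2 and limma-voom each called 1 of the 7 on each day. The list as a whole did not fall: 6 of the 7 log2 fold changes were above 0 at 5 days, with a median of 0.152. At 12 days 5 of the 7 were above 0, with a median of 0.343.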
